A study of Caenorhabditis elegans with 2 samples.

Results

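The genes described here are 9 named regulators and early genes of the somatic gonad of Caenorhabditis elegans: hnd-1, ehn-3, ckb-3, fkh-6, ceh-22, lim-7, hlh-2, egl-43 and fos-1. They were taken by name, and all 9 were found among the 19985 protein-coding genes of the Ensembl annotation of WBcel235. The measurement was chromatin immunoprecipitation and sequencing (ChIP-seq) of TRA-1 in 1 group of 2 biological replicates. The animals were whole L4 larvae at 48 hours, grown from a synchronised L1 stage obtained by bleaching and starvation, of strain DZ840, in which CRISPR placed a biotag, GFP, a TEV site and 3xflag on tra-1 itself, the allele ez72. An anti-GFP antibody pulled down the tagged protein, and the labels give no sex for the larvae. The gonad was not separated from the rest of the body, so a site used in few cells and a weak site used in many cells cannot be told apart. There is no second condition, so the 9 genes and their sites are set beside all genes and all sites of the same lists, as a description and without a test.

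The somatic gonad of the worm comes from a pair of precursor cells, Z1 and Z4, that flank the germline precursors in the young larva. In hermaphrodites their descendants form the distal tip cells, which lead the growing gonad arms, the anchor cell, which induces the vulva and breaches the basement membrane, and the sheath, spermatheca and uterus. In males the same precursors form 1 arm with a linker cell. TRA-1, a zinc finger protein of the GLI family, is the last regulator of the sex determination pathway and is active in hermaphrodites. It also acts in the gonad precursors themselves, and genetic work has placed the forkhead gene fkh-6 with tra-1 in the control of gonadal sex.

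The sites nearest to 4 of these genes show what the immunoprecipitated DNA looked like, and they are given from the plus strand of WBcel235 (ce11), as in the RefSeq genome. For fkh-6 (chrII:4376817-4376917), ckb-3 (chrIII:4369421-4369521) and egl-43 (chrII:9968472-9968572) the window is 101 bp centred on the summit, the base at which the authors placed the peak's top. For fos-1 (chrV:6000297-6000566) it is the 270 bp that the peaks of both replicates share, with the summit at position 136. Capitals mark TGAGTCA in the ckb-3 window, a match to the AP-1 word TGANTCA, and TGGCCGAGT in the egl-43 window, a match to TGGCNNAGT. In the fos-1 stretch the capitals mark, from position 22, the reverse complement of a TRA-1 core with 1 mismatch and, from position 161, the palindrome TGACGTCA. Words other than the core were counted only within 50 bp of the summit. Farther out, the fos-1 stretch holds matches to further searched words, such as CANNTG and TGATAA, left in lower case. The fkh-6 window held none of the words searched.
fkh-6: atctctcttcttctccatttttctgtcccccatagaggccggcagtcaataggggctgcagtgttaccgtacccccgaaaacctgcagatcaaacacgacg
ckb-3: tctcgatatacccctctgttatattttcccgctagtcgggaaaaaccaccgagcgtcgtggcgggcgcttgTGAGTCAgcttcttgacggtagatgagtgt
egl-43: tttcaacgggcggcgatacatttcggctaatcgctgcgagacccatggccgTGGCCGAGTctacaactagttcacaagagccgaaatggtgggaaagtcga
fos-1: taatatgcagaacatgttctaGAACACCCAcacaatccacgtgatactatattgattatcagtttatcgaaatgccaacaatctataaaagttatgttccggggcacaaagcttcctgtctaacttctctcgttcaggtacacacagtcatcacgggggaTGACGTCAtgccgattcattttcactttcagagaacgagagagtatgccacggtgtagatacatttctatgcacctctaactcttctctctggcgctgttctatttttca

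TRA-1 sites lay within 10 kb of 6 of the 9 genes, and 1 gene had a site in its own upstream window, a share close to that of all genes. In the main list, the 2703 sites that the authors called from both replicates under their conservative threshold, 1 of the 9 genes (ckb-3) had a summit in the window that runs from 2000 bp upstream of the start through the gene, against 11.2% of all protein-coding genes. A summit within 10 kb of either end of the gene was found for 6 of the 9 (hnd-1, ckb-3, fkh-6, lim-7, egl-43 and fos-1), against 37.6% of all protein-coding genes. The 3 without one were ehn-3, ceh-22 and hlh-2. The distance from the gene to the nearest main site had a median of 5502 bp over the 9 genes and of 16145 bp over all nuclear protein-coding genes. The 9 genes were also longer, with a median span of 3822 bp against 2027 bp, and a longer gene offers a longer window. The member closest to the 10 kb limit from inside was lim-7, at 9610 bp, and the nearest beyond it was ceh-22, at 18201 bp.

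The same genes came up in the other lists. In the second thresholded list of both replicates, with 3168 sites, ckb-3 was again the 1 gene of 9 with a site at the gene (12.9% of all genes), and the same 6 had a site within 10 kb (41.9%). In the list made from replicate 1 alone, with 1682 sites, ckb-3 again had a site at the gene (7.59% of all genes) and 5 genes had one within 10 kb (26.8%). In the list of replicate 2 alone, with 1355 sites, ckb-3 had a site at the gene (6.22%) and 4 genes had one within 10 kb (23.1%). The gene that dropped out of both single-replicate lists was egl-43, and hnd-1 dropped out of that of replicate 2.

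**Figure D1:**
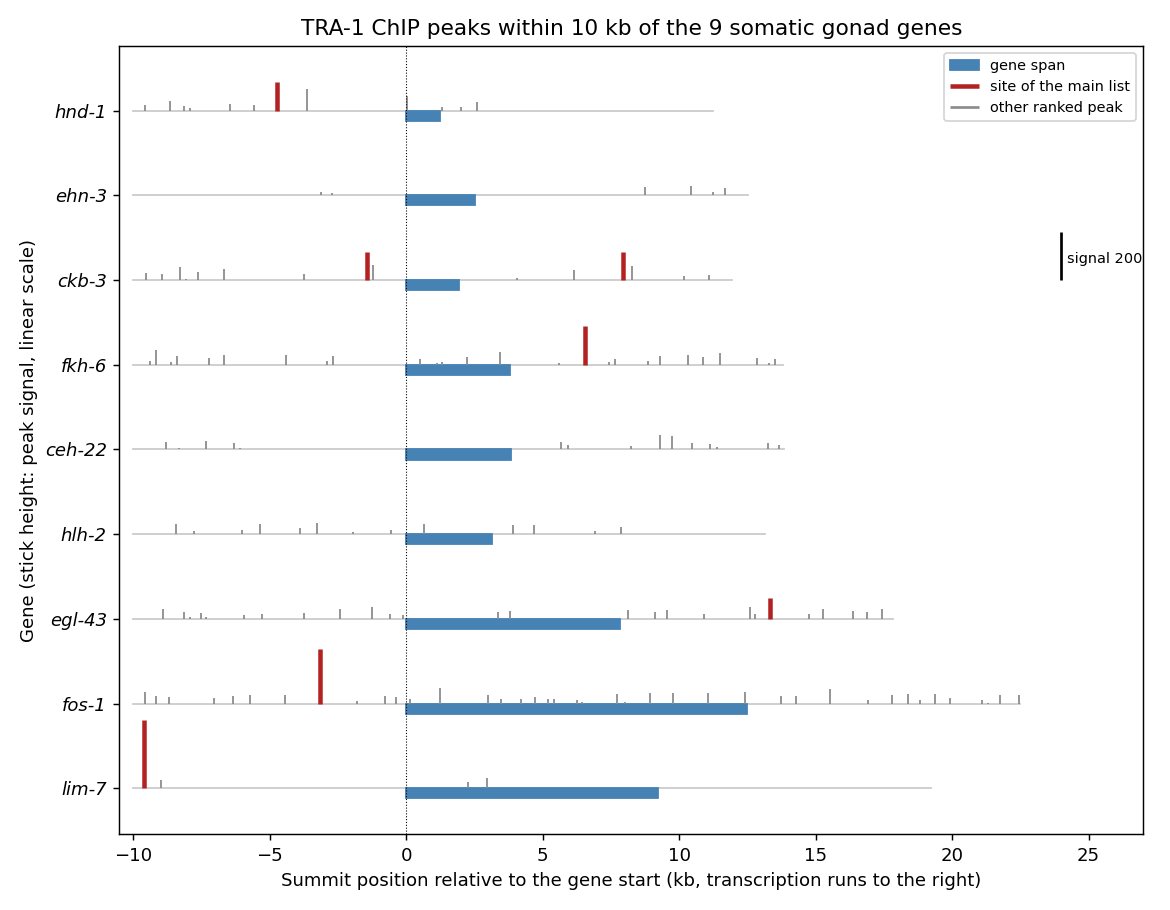
Peaks of the ranked list within 10 kb of the 9 genes. The x axis is the position of the summit relative to the annotated start of the gene in kb, with transcription to the right, blue bars are gene spans, and stick height is the peak's deposited signal on a linear scale. The 7 sites of the main list (red) lie beside 6 of the genes, and none of them lies inside the span of the gene beside which it is drawn.

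Beside each thresholded list the authors deposited a ranked list, which also holds the weaker peaks that missed the threshold. The 7 main sites near these genes were of ordinary to high strength for the main list. Signal, the value the authors' peak caller gave each peak, had a median of 120.0 over the 7 sites and of 105.3 over all main sites (quartiles 85.1 and 144.6), and 6 of the 7 were at or above that overall median. The score runs to 1000 and rises as the irreproducible discovery rate (IDR), a measure of how poorly a peak repeats between replicates, falls. In a list made from 1 replicate alone, the score cannot measure repetition between the 2 replicates. In the main list the score was 1000 at 6 of the 7 sites, as at 75.1% of all main sites. In the replicates' own lists, 6 of the 7 were called in replicate 1 and 5 in replicate 2, against 54.6% and 46.1% of all main sites. Signal was higher in replicate 1 at 4 of the 7, and over 2664 main sites the ratio of replicate 1 to replicate 2 had a median of 1.17, with a range from the 5th to the 95th percentile of 0.715 to 2.03. Every one of the 7 sites had a ratio within that range.

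Among the genes of the gonad precursors, hnd-1 encodes a bHLH factor related to vertebrate Hand proteins that is needed to form Z1 and Z4. It is a short gene of 1228 bp at chrX:11684561-11685788 on the plus strand. Its main site, chrX:11679682-11679985, had its summit 4727 bp upstream of the start, inside the 5' UTR of the neighbouring gene T04F8.7, with a signal of 120.0 and rank 1048 of 2703. In its own list the site had a signal of 88.3 and a score of 1000 in replicate 1, and a signal of 43.6 and a score of 770 in replicate 2. Replicate 1 was thus 2.02 times replicate 2, near the upper end of the range over all sites, and the score of replicate 2 was under the list's lower limit of 830. A further peak, chrX:11680793-11681096, lay 3616 bp upstream of the start and 35 bp past the start of T04F8.7, with a signal of 90.1. It entered the second thresholded list alone, with a score of 832, and its score in the ranked list that belongs to the main list was 810. Its signals of 60.1 in replicate 1 and 29.9 in replicate 2 stood in nearly the same ratio, 2.01, and neither replicate's own list called it. Both sites lie closer to the start of T04F8.7 than to that of hnd-1.

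A weaker peak lay at the start of hnd-1 itself. Its summit was 33 bp past the start, in the 5' UTR, with a signal of 59.7 and a score of 609 in the ranked list, an IDR of 0.0340, which is above the threshold of about 0.01. The signal there was 30.0 in replicate 1 and 34.7 in replicate 2, so both replicates had a peak at the start and neither called it.

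The gene ehn-3 encodes a zinc finger protein related to Ikaros that acts with hnd-1 in the gonad precursors. It was the emptiest of the precursor genes. Its nearest main site was 36368 bp away, and no peak of the ranked list, which has 78883 entries down to weak ones, had a summit from 2000 bp upstream of ehn-3 to its end at chrIV:5416699-5419222. That absence is common, since 19.7% of all nuclear protein-coding genes had no ranked peak in that window. The second ranked list had none there either, and the replicates' own ranked lists had 1 peak each, with a signal of 12.1 at 129 bp upstream in replicate 1 and of 17.2 at 1912 bp upstream in replicate 2, at scores of 30 and 25. Within 10 kb there were 6 ranked peaks, the strongest with a signal of 38.3 and a score of 33. At 2.66 ranked peaks per 10 kb, ehn-3 had more than 10.7% of genes, whose median was 8.32.

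The gene ckb-3 encodes a choline kinase, an enzyme of phospholipid synthesis, and its upstream region is known to be active in the gonad precursors. It was the 1 gene with a main site in its own upstream window, and it had another main site beyond its end. The upstream site, chrIII:4369319-4369622, had its summit 1414 bp before the start, in an intron of the neighbouring gene ckb-2, another choline kinase gene. Its signal was 114.8 (rank 1131), with 55.8 in replicate 1 and 52.3 in replicate 2, and both replicates called it at scores of 978 and 1000. The site beyond the end, chrIII:4378676-4378979, had its summit 6008 bp past the end of ckb-3, in a coding exon of pals-26. Its signal was 114.5 (rank 1134), with 51.2 in replicate 1 and 70.8 in replicate 2, both called. The signals of the replicates agreed to within 1.07 times at the upstream site, and replicate 1 was 0.723 of replicate 2 at the other. Their summits at the upstream site differed, at 1433 bp before the start in replicate 1 and 1343 bp in replicate 2.

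Both ckb-3 sites lay beside copies of 1 noncoding RNA gene. The upstream summit was 3 bp past the start of srpr-1.2, of the gene class of signal recognition particle RNA, which sits inside the intron of ckb-2 at chrIII:4369468-4369766. The other summit was 81 bp beyond the end of srpr-1.1 at chrIII:4378909-4379206. The RNA copies are 98.3% identical over an alignment of their 299 and 298 bp, so reads from one copy could have been placed on the other where they do not reach unique flanks, and whether the values of the sites are independent was not tested. Of the 5 srpr genes in the annotation, 4 had a main site within 100 bp of them, and srpr-3, the copy least like srpr-1.2 at 82.5% identity, had none.

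The gene fkh-6 encodes a forkhead transcription factor that early gonad development needs in both sexes and that promotes male fates in the gonad. It lies at chrII:4379585-4383406 on the minus strand. Its main site, chrII:4376827-4376961, was narrow, at 135 bp against a median of 304 bp for the list. The summit was 2718 bp downstream of the gene and 6539 bp away from its start. It also fell in the 2000 bp upstream window of B0286.1, a gene that overlaps fkh-6. The summit lay 402 bp upstream of ntl-2, which encodes a subunit of the CCR4-NOT deadenylase complex, and was nearer to that start than to any other. The signal was 162.4 (rank 494), with 77.5 in replicate 1 and 89.8 in replicate 2, both at a score of 1000. Replicates differed little here, with a ratio of 0.864, and this was 1 of the 2 main sites near the 9 genes with no noncoding RNA gene within 100 bp, the other being that of hnd-1.

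Inside fkh-6, ranked peaks were weaker. There were 5 from 2000 bp upstream to the gene end, the strongest in a coding exon 3445 bp past the start with a signal of 51.9 and a score of 362, and with 25.2 in replicate 1 and 27.8 in replicate 2. The surroundings as a whole were rich in weak peaks, with 26 within 10 kb or 10.9 per 10 kb, more than in 79.1% of genes.

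**Figure D2:**
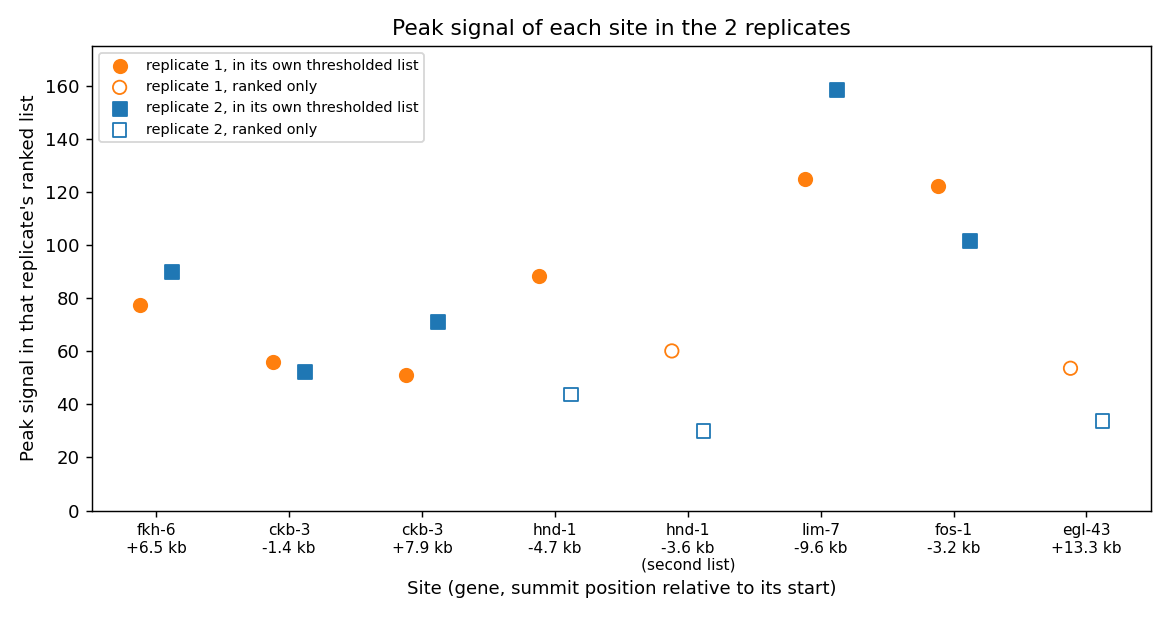
Signal of each site in the 2 replicates, taken in each replicate from the strongest ranked peak that overlaps it (y axis, deposited signal). Filled symbols are peaks in that replicate's own thresholded list, open symbols are ranked peaks below its threshold, and the x axis names the gene and the summit position relative to its start. The lim-7 and fos-1 sites are above 100 in both replicates. Signal is higher in replicate 1 at both hnd-1 peaks, the egl-43 peak, the fos-1 site and the upstream ckb-3 site. It is higher in replicate 2 at the fkh-6 and lim-7 sites and the other ckb-3 site.

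The gene ceh-22 encodes a homeodomain factor of the NK-2 family, known from pharyngeal muscle and, in the gonad, from the specification of distal tip cells downstream of Wnt signalling. Like ehn-3 it had no main site within 10 kb, and the nearest was 18201 bp from the gene at chrV:10671918-10675769. No peak of the main ranked list fell from 2000 bp upstream to its end. The second ranked list had 7 there, the strongest 3276 bp past the start with a signal of 51.0 and a score of 349, and replicate 2 alone had 3, with a signal of 21.2 at 3281 bp, whereas replicate 1 had none. Presence of peaks inside ceh-22 thus depended on which ranked list was read. The strongest ranked peak within 10 kb had a signal of 58.7, a score of 149 and an IDR of 0.437. It lay 9315 bp past the start, 1189 bp upstream of gsp-1, a protein phosphatase gene. The ncRNA genes F29F11.7 and F29F11.8 were within 100 bp of its summit. This peak had a signal of 20.0 in replicate 1 and 36.7 in replicate 2.

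The gene lim-7 encodes a LIM homeodomain factor whose upstream region is widely used to mark the gonadal sheath cells. It lies at chrI:5716574-5725809 on the plus strand. Its main site, chrI:5706891-5707064, was the strongest of the 7, and at 9610 bp upstream of the start it was also the farthest of the 7 from the nearer end of its gene. The signal was 281.8 (rank 90), with 125.0 in replicate 1 and 158.4 in replicate 2, both at a score of 1000. No protein-coding gene lies between the site and lim-7, but the start nearest to it was that of pamn-1, 4808 bp away, and the site was assigned to no gene by the 2000 bp window. The summit was 82 bp upstream of the snoRNA gene T19B4.8 and 81 bp from T19B4.9, an ncRNA gene on the other strand. Apart from this site the surroundings of lim-7 were sparse, with 4 ranked peaks within 10 kb in all, or 1.37 per 10 kb, more than in 5.69% of genes. The strongest at the gene itself lay in an intron 2980 bp past the start with a signal of 42.8 and a score of 237. That summit was 32 bp from the ncRNA gene C04F1.5.

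Of the anchor cell genes, fos-1 encodes a bZIP factor of the Fos family that drives invasion of the anchor cell through the basement membrane. It is the longest of the 9 genes, with 12487 bp at chrV:6003601-6016087 on the plus strand and 6 annotated transcript starts. Its main site, chrV:6000419-6000496, was 78 bp wide and had its summit 3169 bp upstream of the first start, outside protein-coding genes. It was the 1 site of the 7, apart from the upstream site of ckb-3, for which the member's own start was the nearest protein-coding start. The signal was 228.4 (rank 179), with 122.2 in replicate 1 and 101.6 in replicate 2, both at a score of 1000. The summit lay inside C10F3.15, an ncRNA gene of 147 bp at chrV:6000346-6000492.

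The fos-1 surroundings were also dense in weak peaks, with 40 within 10 kb, or 12.3 per 10 kb, more than in 89.8% of genes. Of these, 19 lay from 2000 bp upstream to the gene end. The strongest of the 19 was in an intron 1238 bp past the start, with its summit inside the antisense RNA gene anr-32. It had a signal of 63.8, a score of 561 and an IDR of 0.0443, with 35.1 in replicate 1 and 27.3 in replicate 2. Both replicates thus had a peak in the first part of the gene that missed the threshold.

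The gene egl-43 encodes a zinc finger protein related to EVI1 that acts in anchor cell fate and invasion. It had the weakest of the 7 main sites, chrII:9968370-9968673, with a signal of 86.8, a score of 931 and rank 1956. The signal was 53.6 in replicate 1 and 33.7 in replicate 2, at scores of 603 and 428, so that neither replicate called it alone. The summit lay 5502 bp past the end of egl-43, which spans chrII:9955185-9963020, and 8291 bp from its nearest transcript start, with dtmk-1 and R53.4 in between. It was 151 bp upstream of psf-1, which encodes a subunit of the GINS replication complex, and inside a pair of ncRNA genes on opposite strands, R53.9 and R53.11. At the gene itself the strongest ranked peak was 1257 bp upstream of the start, with a signal of 51.2 and a score of 277, and with 24.6 in replicate 1 and 22.4 in replicate 2.

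The gene hlh-2 encodes the bHLH protein of the E and Daughterless class that pairs with other bHLH factors and acts in the choice of the anchor cell and in the distal tip cells. It was the most distant from a main site of all 9 genes, at 63220 bp. Its strongest ranked peak was in a coding exon 670 bp past the start with a signal of 42.5 and a score of 220, and with 21.6 in replicate 1 and 22.3 in replicate 2. Within 10 kb the strongest had a signal of 47.4 and a score of 137, and it lay 3280 bp upstream. With 13 ranked peaks within 10 kb, or 5.62 per 10 kb, hlh-2 had more than 27.4% of genes.

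**Figure D3:**
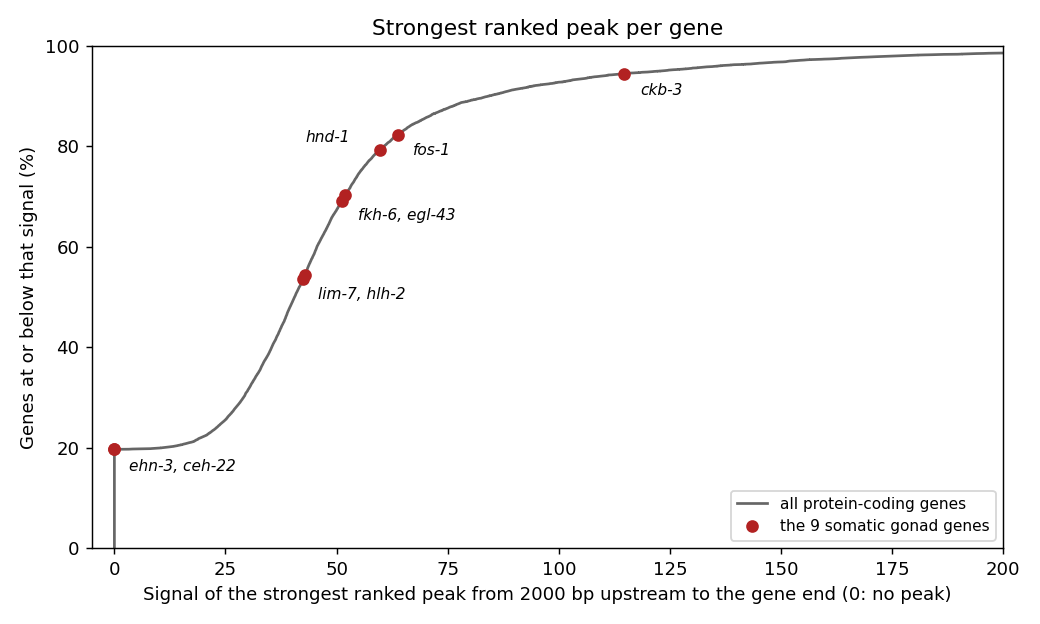
Signal of the strongest ranked peak from 2000 bp upstream to the gene end (x axis, deposited signal, 0 where there was no peak, drawn up to 200) against the percent of protein-coding genes at or below it (y axis). The grey line is all nuclear protein-coding genes and the red points are the 9 genes: ckb-3 stands at 114.8, the next, fos-1, at 63.8, and ehn-3 and ceh-22 at 0.

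With peaks on both sides of the threshold counted, the 9 genes could be ordered by signal. The strongest ranked peak from 2000 bp upstream to the gene end had a median signal of 51.2 over the 9 genes and of 40.5 over all nuclear protein-coding genes. That window grows with the gene, and the median span was 3822 bp for the 9 genes against 2027 bp. Neither the medians nor the percentages below were adjusted for length. In falling order it was 114.8 at ckb-3, higher than at 94.5% of genes, 63.8 at fos-1 (82.4%), 59.7 at hnd-1 (79.2%), 51.9 at fkh-6 (70.3%), 51.2 at egl-43 (69.1%), 42.8 at lim-7 (54.3%), 42.5 at hlh-2 (53.7%), and 0 at ehn-3 and ceh-22. Neighbours in that order from fos-1 to hnd-1, from fkh-6 to egl-43 and from lim-7 to hlh-2 differed by less than the signals of replicates 1 and 2 did at the higher of the peaks. The replicate signals come from the replicates' own lists, where values were lower, so their gap does not measure the uncertainty of the order. Counted per length, ranked peaks were no denser around the 9 genes, with a median of 6.29 per 10 kb against 8.32 over all genes.

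Noncoding RNA genes were close to most of the sites. A noncoding RNA gene, piRNA genes and pseudogenes left aside, lay within 100 bp of 5 of the 7 sites near the 9 genes (both ckb-3 sites and those of lim-7, fos-1 and egl-43), against 24.0% of all main sites and 4.67% of all ranked peaks. The summit was inside such a gene at 3 of the 7 sites, against 16.6% of all main sites. All 5 involved genes of the ncRNA class, which 16.7% of main sites had within 100 bp. A snoRNA gene was near 1 of the 7 (2.66% of main sites), and a tRNA gene near 0 of the 7 (10.5% of main sites). Their part in the peaks was not tested. Without the main sites that have a noncoding RNA gene within 100 bp, a comparison added after the data were seen, 2 of the 9 genes kept a site within 10 kb (hnd-1 and fkh-6), against 30.8% of all genes, and 0 of 9 had one at the gene, against 8.82%.

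**Figure D4:**
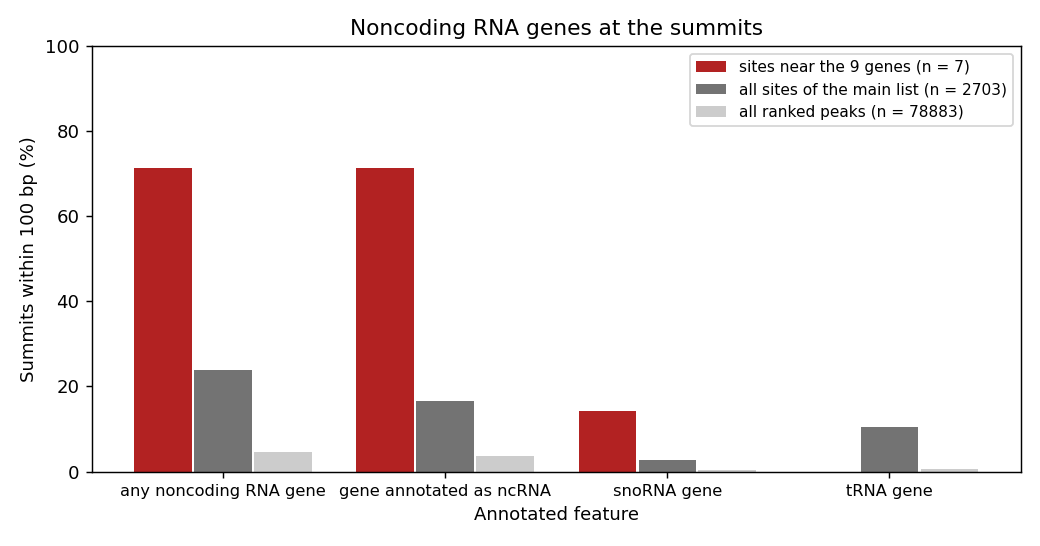
Percent of summits (y axis) within 100 bp of an annotated noncoding RNA gene, by class (x axis), for the 7 sites near the 9 genes (red), all 2703 main sites (dark grey) and all 78883 ranked peaks (light grey). For any such gene the bars stand for 5 of 7 sites, 24.0% and 4.67%; with 7 sites, each is a large share of the red bar.

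The TRA-1 core, TGGGTGGTC, was searched on both strands. It was not found with at most 1 mismatch within 50 bp of any of the 7 summits, and 2.15% of all main sites had it there (0.296% exactly). Within 150 bp it was found at 1 of the 7, that of fos-1, against 4.81% of all main sites. The whole gene windows of the 9 genes, 226054 bp with 10 kb to each side, held 22 such matches in 8 of the genes, and hlh-2 had none. That was 0.973 per 10 kb, against 0.923 per 10 kb of the 6 nuclear chromosomes, and 84.5% of all gene windows held at least 1. No window of the 9 held the exact core, which 8.06% of all gene windows did. The windows of ceh-22 and fos-1 held 4 each, those of fkh-6, ckb-3, hnd-1 and lim-7 held 3 each, and those of ehn-3 and egl-43 held 1 each. The matches closest to a start were 4 bp past that of ceh-22, in its 5' UTR, and 131 bp before that of lim-7, and no ranked peak of either replicate covered them. Of the 22 matches, 0 were within 50 bp of a main summit, 2 within 50 bp and 5 within 150 bp of a ranked summit.

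The fos-1 match, which lies outside the peak of the main list but inside the wider peaks of both replicates, and the 2 within 50 bp of a ranked summit are given with 10 bases to each side, the core in capitals and read on its own strand, from the RefSeq genome. Substitutions are counted from 1 at the 5' end of the core, with the base of TGGGTGGTC first.
fos-1, G7T, chrV:6000318-6000326, minus strand: gtggattgtgTGGGTGTTCtagaacatgt
ckb-3, G7T, chrIII:4362592-4362600, plus strand: cgaggtctacTGGGTGTTCtggtactcgt
fkh-6, G2T, chrII:4374074-4374082, minus strand: tacatgaactTTGGTGGTCcgtgggccga
The fos-1 match lies 3279 bp upstream of the start and 110 bp from the main summit, and it was the 1 match of the 22 inside a thresholded peak of both replicates. The ckb-3 match lies 8289 bp upstream, 3 bp from the summit of a ranked peak with a signal of 56.2 and a score of 70. In the replicates' own ranked lists a peak covered it in replicate 2 alone, with a signal of 48.2 and a score of 790. The fkh-6 match lies 9328 bp past the start, beyond the end of that gene, which spans 3822 bp. It falls in a coding exon of another gene, 41 bp from a ranked summit. The peak that covered it had a signal of 16.3 in replicate 1 and 18.4 in replicate 2. Over all 22 matches, a ranked peak covered 5 in replicate 1 and 3 in replicate 2.

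Short words bound by the families to which several of the 9 products belong were counted within 50 bp of the 7 summits. The E-box CANNTG, the kind of word bound by bHLH factors such as HLH-2 and HND-1, was at 2 of 7 (hnd-1 and lim-7), against 42.9% of all main sites. The AP-1 word TGANTCA, the kind bound by Fos proteins, was at 1 of 7, the upstream ckb-3 site, against 2.00%. The NK-2 word AAGTG was at 1 of 7, the ckb-3 site beyond its end, against 23.0%, and the forkhead word TGTTTAC was at 0 of 7, against 1.89%. The GATA word TGATAA was at 0 of 7, against 19.3%. A further 3 words were added after the sequences were seen. TGACGTCA, known from bZIP factors of the ATF and CREB families, was at the fos-1 site (0.851% of main sites). TGGCNNAGT, part of the internal A box of tRNA genes, was at the lim-7 and egl-43 sites (3.44%), and GGTTCGA, part of the B box, was at 0 of 7 (6.36%). Matches are letters in these windows and no evidence of a bound factor, and the palindromic words read the same on both strands.

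A wider list of 40 genes of somatic gonad development was read in the same way, by role. Of the 40, 5 had a main site from 2000 bp upstream to the gene end, which is 12.5% against 11.2% of all genes, and 22 had one within 10 kb, which is 55% against 37.6%. The spans of these 40 genes were not compared with those of all genes, and a longer gene offers a longer window. Among 8 genes of the Wnt asymmetry pathway that gives gonad precursors their proximal and distal daughters, 3 had a site at the gene. Within 10 kb, 6 of these 8 had one. The wrm-1 site, at a beta-catenin gene, lay 789 bp upstream with a signal of 156.3, with 89.4 in replicate 1 and 66.0 in replicate 2. The mom-5 site, at a Frizzled receptor gene, lay 1794 bp upstream with a signal of 106.1, with 54.5 in replicate 1 and 56.9 in replicate 2. The pop-1 site, at the TCF gene of the pathway, lay 1446 bp upstream with a signal of 89.6 and a score of 948, with 38.7 in replicate 1 and 43.6 in replicate 2, and it had the ncRNA gene W10C8.8 at 83 bp. Replicate 1 was 1.36 times replicate 2 at wrm-1, 0.958 at mom-5 and 0.887 at pop-1. Both replicates' own lists called the wrm-1 site, that of replicate 2 alone called the mom-5 site, and neither called the pop-1 site, which was not in the second thresholded list either.

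Among 11 genes of anchor cell fate and invasion, 2 had a site at the gene and 9 within 10 kb. For this and every other role, the shares over all genes to set beside these counts are 11.2% and 37.6%, without adjustment for gene length. The site of him-4, which encodes the matrix protein hemicentin, was in an intron 26069 bp past the start with a signal of 319.5, with 166.5 in replicate 1 and 150.04 in replicate 2. Its summit lay within a tRNA gene, and the ncRNA gene F15G9.8 was within 100 bp. The site of lin-29, a zinc finger gene of the larval timing pathway that also acts in the anchor cell, lay 1322 bp upstream with a signal of 88.0 and a score of 996, with 40.8 in replicate 1 and 43.7 in replicate 2. Both replicates' own lists called the him-4 site, and neither called that of lin-29. Neither the 6 genes of precursor fate and entry into gonadogenesis, nor the 8 of distal tip cell and leader cell migration, nor the 7 of sheath, spermatheca and uterus had a site at the gene. Within 10 kb these 3 roles had 1 (gem-4), 3 and 3 genes with a site.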

How the data were processed

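What the authors deposited were lists of peaks in ce11 coordinates, as the file names state: 2 thresholded and 2 ranked lists from both replicates, and 1 of each from each replicate alone. The sources used here name neither an aligner nor a peak caller. In the deposited lists, per the file headers of the narrowPeak format and the values, the score rises as the IDR falls, the signal is the caller's value with a normalisation that is not stated, and a further column holds the −log10 IDR. The lists carry no counts of reads. The depth is therefore unknown, and no interval was computed. Control alignments were not analysed here. The files hold no column from other samples.

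Positions (1-based) were compared with Ensembl release 115 of WBcel235, with the summit as start plus offset. Shares over all genes count 19985 protein-coding genes; medians leave out 12 mitochondrial ones. For each replicate, a site's signal is that of the strongest peak overlapping it in the replicate's own ranked list. All 2703 main sites were found in 1 ranked list with the same score. A site was assigned to a gene when its summit lay from 2000 bp upstream to the gene end. Sequences were read from the RefSeq genome of WBcel235. The gene assignment was tested on simulated data. Computation used Python 3.11.15 with pandas 2.3.3 and numpy 2.4.6, and figures used matplotlib 3.10.9. With 1 group of 2 replicates no test was possible.

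The 9 genes, the 40 companion genes and the words were chosen with earlier results of these data known. Named are all 9 genes, each main site within 10 kb of them, the genes whose span or upstream window holds such a site, and the companion genes with a site at the gene; the remaining neighbours were named after their values were seen. The alternatives were the second list, stricter thresholds, each replicate alone, other windows and overlaps, and the list without sites beside noncoding RNA genes.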

Additional observations from a re-analysis of the deposited data

How the results depend on the processing

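The count of genes with a site from 2000 bp upstream to the gene end, 1 of 9, was 0 with a 1000 bp upstream window (8.83% of all genes), 3 with 5000 bp (16.6%), 2 when each site was given to the nearest start alone (10.3%), and 0 without sites that have a noncoding RNA gene within 100 bp (8.82%), a comparison added after the data were seen. It was 1 in the second list, in each replicate alone, at an IDR of at most 0.001 (6.12%) and at or above the median signal (6.4%). Genes with a site within 10 kb, 6 of 9, were 6 in the second list (41.9%), 5 at an IDR of at most 0.001 (22.7%), 5 at or above the median signal (23.6%), 4 and 5 in replicates 2 and 1 alone (23.1% and 26.8%), 5 within 10 kb of the start (33.9%), 4 within 5 kb of the gene (24.8%) and 2 without sites beside noncoding RNA genes (30.8%), and the sites themselves, 7 in the main list, were 5 to 8 and 2. Companion genes with a site at the gene, 5 of 40, were 4 in the second list (12.9% of all genes) and 3 at an IDR of at most 0.001 (6.12%). They were 3 at or above the median signal (6.4%) and 2 with a 1000 bp window (8.83%). In replicate 2 alone they were 3 (6.22%), and in replicate 1 alone 2 (7.59%). The strongest site of ckb-3 was the one beyond its end, 7903 bp past the start, in replicate 2 alone. The count of sites with a core within 50 bp of the summit was 0. It was also 0 for the exact core and for a core anywhere in the peak. Within 150 bp of the summit the count was 1 of 7, the fos-1 site. No paired analysis was possible because there is 1 group. Signal cannot be turned into occupancy, since depth and normalisation are unknown, and a gene without a peak is not shown to be unbound.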
